A study of Homo sapiens with 12 samples.

Results

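The mitochondrially encoded transcripts were all rows of the expression table whose symbol begins with MT-, 13 of 35238 rows. That rule uses no expression value, though it was set with earlier results of these data known. They were measured by bulk RNA sequencing of HK-2, a human cell line established from kidney proximal tubule, in 4 groups of 3 libraries. Cells were transfected with 10 nM of a scrambled short interfering RNA (SCR) or of one against POLR2A (siB), which encodes RPB1, the catalytic core of RNA polymerase II. At the same time the plant nephrotoxin aristolochic acid I (AAI) at 25 µM, or its vehicle DMSO, was added for 24 hours, so every group carried a transfected RNA. The groups are named SCR DMSO, SCR AAI, siB DMSO and siB AAI, and were taken from sample titles, because a treatment field read DMSO throughout. Nothing in the labels stated that the 3 replicates of a group were separate cultures, so the p-values measure only the spread between these libraries, which may be technical. The knockdown was transient and by a single RNA sequence in a single cell line. The comparisons asked how mitochondrial RNA levels stood after AAI with and without the knockdown.

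Mitochondria keep a small circular genome of their own. It is read not by RNA polymerase II but by a dedicated polymerase, POLRMT, with the factors TFAM and TFB2M, and the product is a long RNA from each strand that is cut into single messengers, mostly at the transfer RNAs lying between the genes. These messengers receive short poly(A) tails and encode core subunits of the respiratory chain, whose remaining subunits come from nuclear genes and are imported. Proximal tubule cells are known for their dense mitochondria and reliance on oxidative metabolism.

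The mitochondrial genome of build hg38 is 16569 bases long and has 37 annotated genes (GENCODE), of which 13 encode proteins, 22 transfer RNAs and 2 ribosomal RNAs. All 13 protein-coding genes were in the table, and the other genes were not rows of it. They comprised 7 subunits of complex I (MT-ND1, MT-ND2, MT-ND3, MT-ND4, MT-ND4L, MT-ND5 and MT-ND6), the 1 subunit of complex III (MT-CYB, cytochrome b), 3 of complex IV (MT-CO1, MT-CO2 and MT-CO3, the cytochrome c oxidase core) and 2 of complex V (MT-ATP6 and MT-ATP8, of ATP synthase). Of these, 12 are read in the direction of the heavy-strand promoter, and MT-ND6 alone lies on the other strand. Genes follow each other with almost no space between them, and pairs share bases. The first and second stretch below show shared bases, from which alone a read cannot be given to a single gene. In the last stretch no base is shared, and the genes lie on opposite strands. MT-ATP6 and MT-CO3 also share 1 base, which is not shown. Capitals mark the bases that belong to both genes in the first and second stretch, and in the last stretch the end of MT-ND6, which is read from the opposite strand, directly after the last base of MT-ND5.
MT-ATP8 and MT-ATP6, chrM:8507-8592, plus strand: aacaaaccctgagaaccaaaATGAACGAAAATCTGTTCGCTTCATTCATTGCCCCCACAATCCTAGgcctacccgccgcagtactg
MT-ND4L and MT-ND4, chrM:10740-10786, plus strand: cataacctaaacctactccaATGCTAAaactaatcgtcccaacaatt
MT-ND5 and MT-ND6, chrM:14124-14173, plus strand: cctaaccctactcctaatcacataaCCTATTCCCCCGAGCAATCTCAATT

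MT-ATP8 and MT-ATP6 share 46 bases and MT-ND4L and MT-ND4 share 7, so how reads were split within these pairs depended on the counting. Whether the counting used strand was not stated, and without strand, reads of MT-ND6 and of its antisense RNA on the long heavy-strand transcript cannot be told apart. Nuclear copies of mitochondrial DNA add a further ambiguity, since some are nearly identical to the gene. The start of MT-ATP6 and of its copy MTATP6P1 on chromosome 1 are shown because they differ at 1 of 120 bases, in capitals.
MT-ATP6, chrM:8527-8646, plus strand: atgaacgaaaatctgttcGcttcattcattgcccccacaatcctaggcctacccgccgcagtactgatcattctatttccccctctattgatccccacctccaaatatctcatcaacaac
MTATP6P1, chr1:633696-633815, plus strand: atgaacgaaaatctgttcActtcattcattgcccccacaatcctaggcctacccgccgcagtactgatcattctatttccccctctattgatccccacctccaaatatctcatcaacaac

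Levels are given in counts per 1000000 reads (CPM), recovered from the deposited log scale. Library depth ran from 15844015 reads in siB AAI replicate 1 to 42805294 in SCR DMSO replicate 2. POLR2A, the target, was 258, 288 and 306 CPM in SCR DMSO, 673, 719 and 729 in SCR AAI, 138, 143 and 139 in siB DMSO and 266, 220 and 210 in siB AAI. Every siB library was below every SCR library of the same treatment, and siB AAI was nearer to SCR DMSO than to SCR AAI. The log2 difference between siB and SCR was -1.61 ± 0.15 with AAI (SE, adjusted p = 0.000582 in limma) and -1.01 ± 0.13 with DMSO, where it did not pass (adjusted p = 0.505 in limma). Of 16 proximal tubule and epithelial markers, those of epithelia (KRT8, KRT18, EPCAM, PAX8) were high, whereas SLC22A6, LRP2 and AQP1, which define mature proximal tubule, stayed under 1 CPM as group means. SCR DMSO replicate 2 stood apart from its group for several nuclear genes named below, so the counts that rest on it are also given without it. A single nuclear non-coding transcript, AC010970.2, took between 0.189% and 10.6% of a library, and shares are also given without it. In bulk samples, fewer cells of a kind and less RNA per cell cannot be told apart, and a share of reads cannot tell more mitochondrial RNA from less nuclear RNA.

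The 13 genes together took a larger share of reads in siB AAI than in any other group. The share was 3.39%, 2.67% and 3.84% in SCR DMSO (3.30% ± 0.589, SD, n = 3), and 2.86%, 3.30% and 3.50% in SCR AAI (3.22% ± 0.325, n = 3). It was 3.25%, 3.49% and 3.64% in siB DMSO (3.46% ± 0.200, n = 3), and 4.12%, 5.01% and 4.97% in siB AAI (4.70% ± 0.505, n = 3). Every siB AAI library lay above every library of the other groups, with replicate 1 the nearest, and the other groups overlapped each other. AAI was accompanied by a difference of 1.24 percentage points in siB cells and of -0.0841 points in SCR cells, against a spread between replicates of 0.384 and 0.476 points. With AAI in both groups, siB minus SCR was 1.48 points, whereas with DMSO in both it was 0.160 points, within the replicate spread of 0.440. No p is given for the share, which is a score over the members.

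That separation held without AC010970.2, where siB AAI ran from 4.15% to 5.35% and the highest other library, SCR DMSO replicate 3, was at 4.06%. It did not hold in full under median-ratio scaling, which sets libraries by their typical gene rather than their total: siB AAI replicate 1, at 3.68% on that scale, then lay below SCR DMSO replicate 3 (3.99%) and siB DMSO replicate 3 (3.82%). The group mean of siB AAI remained the highest on that scale, at 4.43% ± 0.653 against 3.53% ± 0.417 in SCR DMSO, 3.02% ± 0.405 in SCR AAI and 3.53% ± 0.366 in siB DMSO (SD, n = 3 each).

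The siB AAI libraries also stood apart from the rest in the number of genes detected and in proximal tubule and epithelial markers. They had 14956 to 15699 genes at a CPM of at least 1, against 13032 to 14298 in the other groups. Within siB AAI the order was not that of the share, since replicate 1 had the most genes (15699) and the lowest mitochondrial share (4.12%). The 16 proximal tubule and epithelial markers summed to 1485 to 1562 CPM in siB AAI, below the 1615 to 1850 in SCR AAI, 1788 to 2026 in SCR DMSO and 1942 to 2090 in siB DMSO. Among 13 markers of other cell types, the summed level was 90.7 to 108 CPM in siB AAI, 97.2 to 105 in SCR AAI, 98.7 to 119 in siB DMSO and 110 to 150 in SCR DMSO. Of these 13, however, 9 had a group mean of at least 1 CPM in siB AAI, against 6 in SCR AAI and 4 in each DMSO group. Only 6 of the 13 could be tested between siB AAI and siB DMSO. At 2-fold, SLC12A3, PECAM1 and PTPRC were higher in siB AAI, with log2 changes of 2.56, 1.39 and 1.33, and COL1A1 lower (-1.37). Of all genes, 13.9% were raised and 5.79% lowered. Group means of SLC12A3, PECAM1 and PTPRC in siB AAI were 5.43, 4.65 and 2.70 CPM. SLC12A3 and PTPRC averaged under 1 CPM in siB DMSO, so they entered the test through siB AAI, where they were high. KDR and UMOD, which define endothelium and the loop of Henle, had no read in siB AAI. The part of these differences in the mitochondrial result was not tested.

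**Figure D1:**
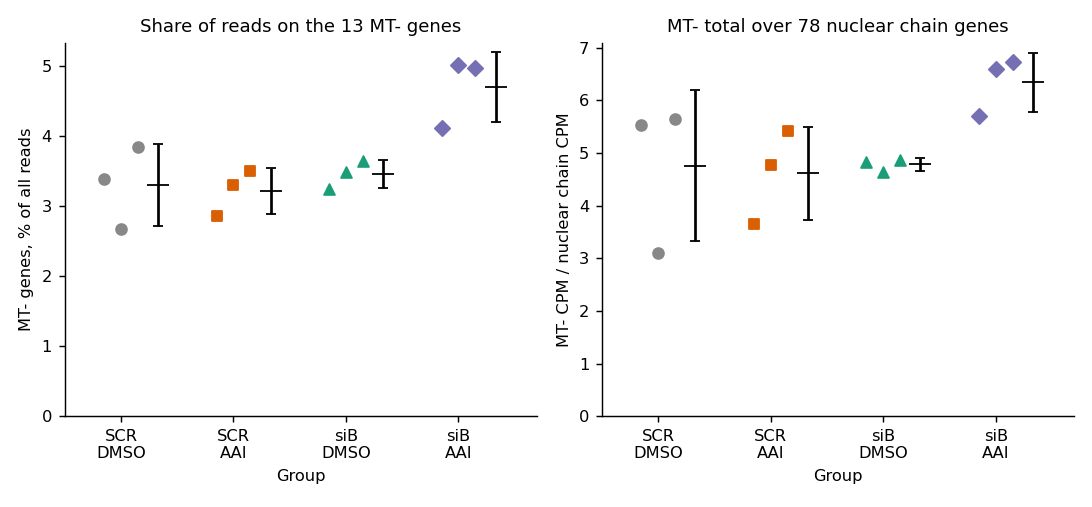
Left: percent of all reads on the 13 MT- genes in each library, by group. Right: summed CPM of the 13 genes over the summed CPM of 78 nuclear respiratory chain genes. Coloured points are libraries (replicates 1 to 3 from left to right), black bars are the group mean ± SD (n = 3). The 3 siB AAI libraries, at 4.12% to 5.01%, are above all others on the left, and on the right, at 5.71 to 6.74, they are just above the highest SCR DMSO library at 5.65.

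By reads taken, not corrected for gene length, 9 of the 13 were among the 50 rows of highest mean CPM in the whole table. MT-CO1, the catalytic subunit of cytochrome c oxidase, averaged 13857 CPM over the 12 libraries, rank 2 of all rows, and MT-ATP8, a short accessory subunit, 71.6 CPM. Per kilobase of gene, MT-CO1 was first and MT-CO2 next in all 12 libraries, and MT-ATP8 was last in 11 of them. In SCR DMSO, MT-CO1 stood at 7342 ± 1505 CPM per kb, MT-CO2 at 5734 ± 779, MT-CO3 at 3653 ± 764 and MT-ND1 at 2847 ± 550 (SD, n = 3 each). Then came MT-ND4 (2351 ± 519), MT-ND2 (2159 ± 213), MT-ATP6 (2031 ± 306), MT-CYB (2007 ± 421) and MT-ND3 (1883 ± 201), neighbours whose ranges overlapped. The lowest levels per kb were those of MT-ND4L (1493 ± 362), MT-ND5 (862 ± 188), MT-ND6 (563 ± 143) and MT-ATP8 (317 ± 30.9). In SCR DMSO the 3 highest group means per length were thus those of complex IV.

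**Figure D2:**
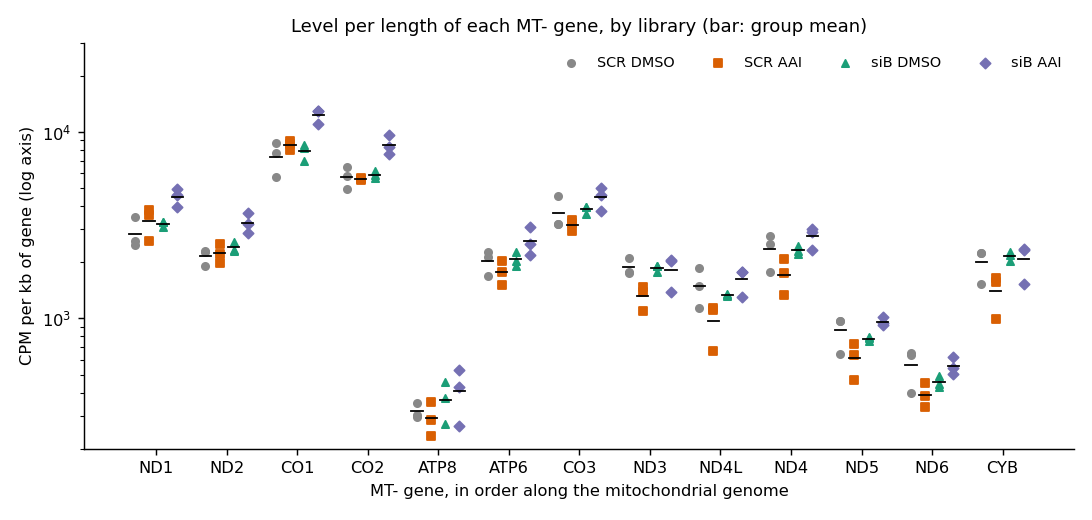
CPM per kilobase of gene (log axis) for each of the 13 MT- genes, named without the prefix and ordered along the mitochondrial genome. Points are libraries, 3 per group, and black bars are group means. MT-CO1 and MT-CO2 lead in every library, and the siB AAI points of MT-CO1 sit between 10944 and 12881 CPM per kb, above all others of that gene.

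In SCR cells, AAI left no member past the test. At an adjusted p under 0.05 with a change of at least 2-fold, the study's rule, 0 of 13 were called, against a background of 7.73% of 14228 genes raised and 2.73% lowered. Without the fold limit the count was also 0 of 13 in limma on log2(CPM + 1) (background 8.98% higher and 3.36% lower). It was 0 in limma's voom on the recovered reads (8.27% and 2.84%). In each, 1 member, MT-ND3, had an unadjusted p under 0.05, as did 3841 of 14228 genes in limma and 3787 in voom. Fitting the replicate numbers as a block, since same-numbered libraries were correlated here, also called 0 (14.7% and 6.4%). Of the 13 log2 differences, 10 were negative, from -0.63 (MT-ND4L) to 0.23 (MT-CO1), with a median of -0.20 beside 0.18 over all genes. MT-ND3, a small subunit of complex I, was 615, 608 and 732 CPM in SCR DMSO and 377, 482 and 509 in SCR AAI. It was the only member whose groups did not overlap in CPM, at a log2 difference of -0.52 ± 0.21 (SE, adjusted p = 0.160). Groups without overlap, lower in SCR AAI, made up 11.5% of all genes tested. MT-ND4L was 443, 336 and 551 CPM against 197, 329 and 337, so that SCR DMSO replicate 2 alone reached into the SCR AAI range. Without that library, MT-ND4L and MT-ND6 passed as lower, the lowest adjusted p among the members being 0.0291, while 8.7% of all genes were lower and 13.5% higher.

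In siB cells, AAI was accompanied by higher levels of 5 members. No member reached 2-fold (background 13.9% raised and 5.79% lowered of 14928 genes), but 5 of 13 passed an adjusted p under 0.05 as higher and 0 as lower, both in limma on log2(CPM + 1) and in voom. Of all genes, 30.4% were higher and 21.8% lower in limma, and 29.9% and 21.9% in voom, so the members' count was near the background. Replicates 2 and 3 of siB DMSO were closer to each other than any other pair of libraries within a group. Their read counts differed by a chi-square per degree of freedom of 4.23, against 26.2 to 358 for the other pairs. How far this lowered the p-values in siB cells was not tested. MT-CO1 was 10786, 12606 and 13060 CPM in siB DMSO and 16875, 19849 and 19862 in siB AAI, with a clear gap between the groups (log2 change 0.64 ± 0.13, SE, adjusted p = 0.00327 in limma). MT-CO2, which holds the copper centre that receives electrons from cytochrome c, was 3885, 3991 and 4226 CPM against 5201, 6596 and 5663 (0.52 ± 0.12, adjusted p = 0.00506 in limma). All AAI libraries again lay above all DMSO libraries. MT-ND1, a membrane subunit of complex I, rose from 2940, 3154 and 3122 CPM to 3799, 4406 and 4689 (0.48 ± 0.11, adjusted p = 0.00598 in limma). MT-ND2 was 2406, 2411 and 2675 CPM against 2983, 3355 and 3801 (0.43 ± 0.12, adjusted p = 0.0126 in limma). MT-ND5, the longest of the 13 genes, was 1419, 1443 and 1374 CPM against 1669, 1840 and 1710 (0.30 ± 0.09, adjusted p = 0.0229 in limma). These 5 and MT-ND6 had groups that did not overlap, higher in siB AAI, as did 34.2% of all genes, and 0 were lower without overlap (26.6% of all genes).

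The other 8 members did not pass in siB cells. MT-CYB was level, at 2316, 2507 and 2592 CPM in siB DMSO and 1749, 2645 and 2685 in siB AAI (log2 difference -0.09 ± 0.16, SE), and MT-ND3 likewise (-0.06 ± 0.15). The remaining 6 had differences between 0.13 (MT-ATP8) and 0.31 (MT-ATP6). Over the 13 the median was 0.28 beside 0.10 over all genes. The number called depended on the libraries: without siB AAI replicate 1 it was 10 (28.2% of all genes higher), and without siB DMSO replicate 2 (24.1%) or siB AAI replicate 3 (26.0%) it was 3. Median-ratio scaling, which moved the median of all genes by -0.11 in this comparison, left 2 called, MT-CO1 and MT-CO2 (26.9% of all genes higher).

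With AAI in both arms, all 13 members were higher in siB than in SCR cells, by similar amounts. The log2 differences ran from 0.44 (MT-ATP8) to 0.76 (MT-ND4L), with a median of 0.54, whereas the median over all genes was 0.00. An adjusted p under 0.05 was reached by 2 of 13, where 5.49% of 14946 genes were higher and 3.79% lower, and 0 reached 2-fold (background 3.04% raised, 0.629% lowered). MT-ND4L was 197, 329 and 337 CPM in SCR AAI and 387, 528 and 527 in siB AAI (0.76 ± 0.22, SE, adjusted p = 0.0456 in limma). MT-ND5 was 848, 1156 and 1316 CPM against 1669, 1840 and 1710 (0.67 ± 0.19, adjusted p = 0.0430 in limma). In both, replicate 1 was the lowest library of each group, and the groups did not overlap. Groups were apart for 10 of 13 members, higher in siB AAI, against 15.1% of all genes (15.8% were lower), and the other 3 were MT-ATP8, MT-CYB and MT-ND3. In this comparison, too, same-numbered libraries were correlated, but no label pairs them. With the replicate block all 13 members passed (highest adjusted p = 0.0144 in limma), while the background was then 15.2% higher and 13.8% lower. That block rests on a pairing inferred from these same data. The calls without the block were close to the threshold: 12 members had an unadjusted p under 0.05, as did 3814 of the 14946 genes. In voom 6 were called (5.17% of all genes higher and 3.49% lower). Median-ratio scaling or leaving out AC010970.2 called 0 (6.46% and 5.78% of all genes higher). Without SCR AAI replicate 1 (8.74% of all genes higher) or siB AAI replicate 1 (3.14%) the count was 1, and without any other single library it was 0. All 13 differences stayed positive under each of these settings.

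The interaction asked whether the response to AAI differed between the siRNAs. All 13 estimates were positive, from 0.26 (MT-ND1) to 0.90 (MT-ND4L), with a median of 0.47 beside -0.06 over all 15325 genes, but 0 of 13 passed an adjusted p under 0.05 in limma (background 1.46% higher, 0.157% lower), and 0 did in voom (0.0% each way). At an unadjusted p under 0.05 there were 5 members in limma and 5 in voom, in limma MT-CO2, MT-ND4, MT-ND4L, MT-ND5 and MT-ND6. Over all 15325 genes, 2032 had such a p in limma and 1548 in voom. Leaving out SCR DMSO replicate 2 gave 3 calls, MT-ND4L, MT-ND5 and MT-ND6, all higher (3.25% of all genes higher and 3.34% lower). A difference between siRNAs in the response of single members to AAI was therefore not shown with all libraries in place.

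No member passed with the knockdown alone. Between siB DMSO and SCR DMSO, 0 of 13 members passed in limma or voom with or without the fold limit, nor did any gene of 13606 (background 0.0% each way), and 0 members but 644 genes in all had an unadjusted p under 0.05 in limma. The 13 differences ran from -0.27 (MT-ND6) to 0.19 (MT-ND1), with a median of 0.05. Their standard errors, 0.14 to 0.22, were as large as most of the differences. Without SCR DMSO replicate 2, still 0 members or genes passed, but 9 of 13 differences were negative instead of 4, with a median of -0.06, 3 members had an unadjusted p under 0.05, and so did 2754 genes (lowest adjusted p over all genes 0.0535 in limma). MT-ND2 was the single member without overlap, higher in siB DMSO, as were 8.28% of all genes.

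**Figure D3:**
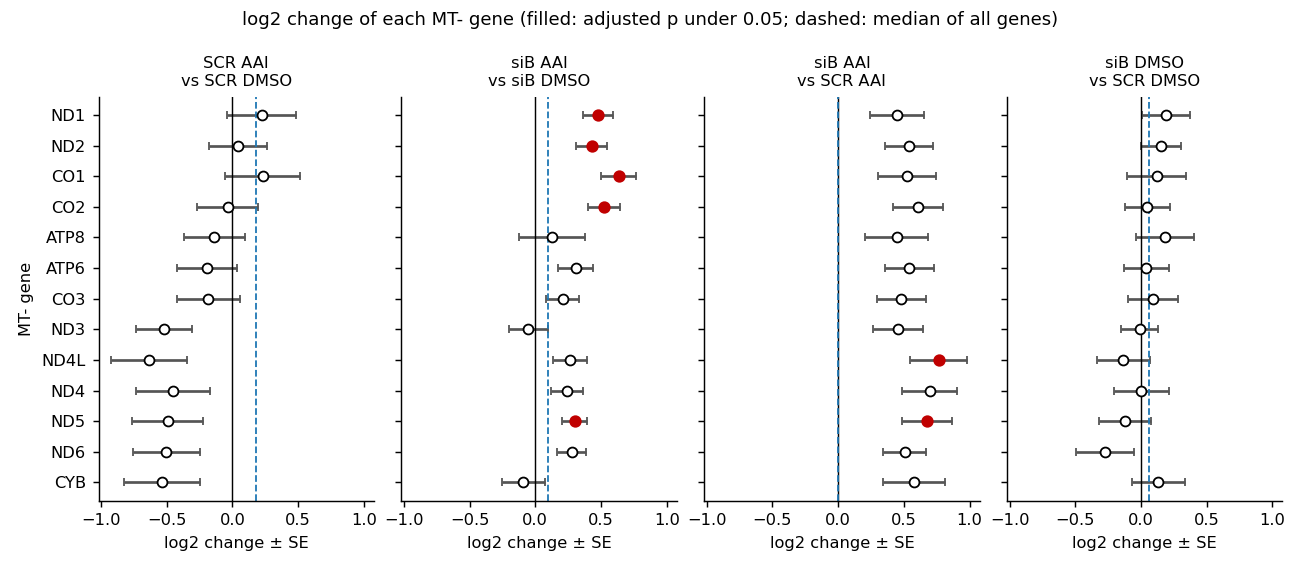
log2 change ± SE (limma) of each MT- gene in the 4 comparisons of pairs, genes ordered along the mitochondrial genome. Filled red points have an adjusted p under 0.05, open points do not, and the dashed blue line is the median change of all genes tested. Red points number 0, 5, 2 and 0 from left to right, and in the panel of siB AAI versus SCR AAI all 13 points lie between 0.44 and 0.76.

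Within the mitochondrial reads, AAI was accompanied by a different composition in SCR and in siB cells, given here as a description. Shares of the 13-gene total need no scaling between libraries. MT-CO1 took 34.2% ± 1.09 of mitochondrial reads in SCR DMSO against 40.8% ± 1.96 in SCR AAI, and 35.1% ± 1.61 in siB DMSO against 40.2% ± 0.713 in siB AAI (SD, n = 3 each). By library, it was 34.8%, 32.9% and 34.8% in SCR DMSO and 43.1%, 40.1% and 39.4% in SCR AAI. The siB libraries had 33.2%, 36.1% and 35.8% with DMSO and 41.0%, 39.6% and 39.9% with AAI. The groups did not overlap in either pair. MT-CYB was lower with AAI, at 7.59%, 6.49% and 6.67% in SCR DMSO and 3.94%, 5.41% and 5.34% in SCR AAI, and at 7.13%, 7.19% and 7.11% in siB DMSO and 4.25%, 5.28% and 5.40% in siB AAI. MT-ND3 was 1.81%, 2.28% and 1.90% against 1.32%, 1.46% and 1.46% in SCR cells, and 2.04%, 1.76% and 1.81% against 1.17%, 1.40% and 1.42% in siB cells. Again no library of an AAI group reached its DMSO group.

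In SCR cells 1 member was higher and 7 were lower without overlap, MT-CO1 against MT-ATP6, MT-CYB, MT-ND3, MT-ND4, MT-ND4L, MT-ND5 and MT-ND6, and in siB cells 1 was higher and 5 lower, MT-CO1 against MT-CO3, MT-CYB, MT-ND3, MT-ND4 and MT-ND4L. On the same scale, level relative to mitochondrial reads, 20.4% of all genes were higher and 8.95% lower without overlap in SCR cells, and 16.4% and 44.1% in siB cells. Shares of a common total are not independent of each other. In siB cells MT-CO3, MT-ND4 and MT-ND4L were lower in share, although their log2 differences in CPM were positive (0.21, 0.24 and 0.26, none called). Grouped by complex, the subunits of complex IV took 54.8% ± 0.772 of mitochondrial reads in SCR DMSO and 60.5% ± 3.49 in SCR AAI, and 55.4% ± 1.33 in siB DMSO and 60.0% ± 1.28 in siB AAI (SD, n = 3 each). In the same order, complex I subunits took 33.8% ± 0.243, 30.7% ± 2.53, 33.1% ± 1.16 and 31.1% ± 0.546, and those of complex V 4.41% ± 0.188, 3.92% ± 0.209, 4.31% ± 0.346 and 3.93% ± 0.472. Between siB AAI and SCR AAI all 13 shares overlapped, whereas 3.65% of all genes were higher and 45.5% lower without overlap on that scale. Between siB DMSO and SCR DMSO 3 members were lower without overlap (MT-ND4L, MT-ND5 and MT-ND6) and 0 higher, against 2.84% and 3.6% of all genes.

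A limma fit on CPM rescaled to an equal mitochondrial total, chosen after the data had been seen, put adjusted p-values on these shares. In siB cells MT-CYB (log2 change -0.53 ± 0.13, SE, adjusted p = 0.00854) and MT-ND3 (-0.49 ± 0.13, adjusted p = 0.0110) were lower and no other member passed, against 38.2% of all genes lower and 14.4% higher on that scale. In SCR cells 0 of 13 passed (background 8.78% higher, 2.46% lower), although MT-CYB (-0.51 ± 0.34) and MT-ND3 (-0.50 ± 0.30) had nearly the same estimates. Their standard errors there were over 2 times those in siB cells, where replicates 2 and 3 of siB DMSO were unusually close to each other. With all 4 groups in the fit, MT-CYB (adjusted p = 0.0689 in limma) and MT-ND3 (0.0583) no longer passed in siB cells, and MT-ND4L passed as lower in SCR cells (0.0441). The replicate block added MT-ATP8 in siB cells (adjusted p = 0.0462 in limma), where same-numbered libraries were not taken as paired.

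The members that were lower within mitochondrial reads lay mostly far along the heavy-strand transcript. Distance was counted in bases from the start of MT-TF, the first gene after the heavy-strand promoters, to the start of each of the 12 heavy-strand members, from 2730 bases for MT-ND1 to 14170 for MT-CYB. In SCR cells the log2 change with AAI was 0.22 for MT-ND1, 0.05 for MT-ND2, 0.23 for MT-CO1 and -0.04 for MT-CO2, the nearest. It was -0.14, -0.20 and -0.18 for MT-ATP8, MT-ATP6 and MT-CO3, in the middle, and between -0.63 and -0.45 for MT-ND3, MT-ND4L, MT-ND4, MT-ND5 and MT-CYB, the farthest. Spearman's rho of change and distance was -0.895 in SCR cells and -0.692 in siB cells, over 12 genes that share libraries, precursor and overlapping reads, given as a description. Without the overlapping pairs MT-ATP8 and MT-ATP6, MT-ND4L and MT-ND4, rho over 8 genes was -0.905 and -0.738. With gene length in place of distance it was 0.196 and 0.294.

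Each AAI library, set against the DMSO libraries of its siRNA, gave the same direction, with rho from -0.874 to -0.867 in SCR AAI and from -0.846 to -0.594 in siB AAI. The DMSO libraries, each set against the other DMSO libraries of its siRNA, ran from -0.566 (SCR DMSO replicate 2) to 0.413 (SCR DMSO replicate 1). The comparison of siB DMSO with SCR DMSO gave -0.629 and that of siB AAI with SCR AAI 0.566. In the DMSO comparison an ordering by distance thus occurred where no member passed the test. MT-ND6, the only member on the other strand, starts between MT-ND5 and MT-CYB and changed by -0.50 ± 0.26 in SCR cells and 0.28 ± 0.11 in siB cells (SE), close to MT-ND5 at -0.49 ± 0.27 and 0.30 ± 0.09.

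**Figure D4:**
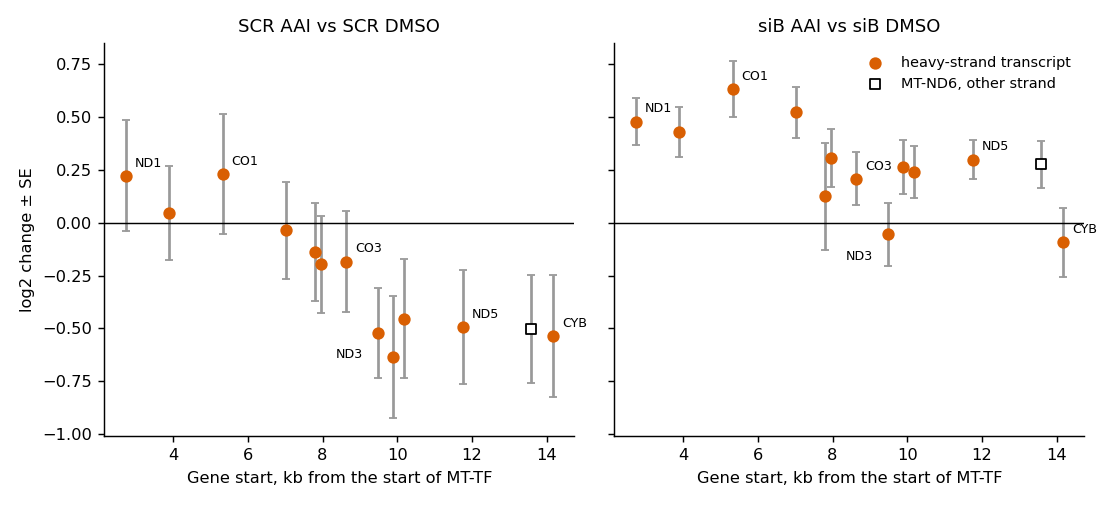
log2 change with AAI ± SE (limma) of each MT- gene against the distance of its start from the start of MT-TF, in kilobases, in SCR cells (left) and siB cells (right). Orange points are the 12 genes of the heavy-strand transcript, the open square is MT-ND6 on the other strand. Points fall from the left to the right of both panels (rho -0.895 and -0.692), from 0.22 for MT-ND1 to -0.54 for MT-CYB in SCR cells and from 0.48 to -0.09 in siB cells.

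The same shift was seen as a ratio within each library, for pairs chosen after their values were seen. The ratio of MT-CYB to MT-CO1 CPM was 0.218, 0.197 and 0.192 in SCR DMSO and 0.0915, 0.135 and 0.136 in SCR AAI. The siB libraries had ratios of 0.215, 0.199 and 0.199 with DMSO and 0.104, 0.133 and 0.135 with AAI. Every AAI library was below every DMSO library, and the AAI groups overlapped each other. The ratio of MT-ND5 to MT-ND1 CPM was 0.704, 0.497 and 0.530 in SCR DMSO, 0.341, 0.338 and 0.362 in SCR AAI, 0.483, 0.458 and 0.440 in siB DMSO and 0.439, 0.418 and 0.365 in siB AAI. Here SCR DMSO replicate 1 was the highest, and in siB cells the lowest DMSO library (0.4403) was only just above the highest AAI library (0.4394). Ratios within overlapping or adjoining pairs showed no such gap. MT-ND4L to MT-ND4 was 0.137 ± 0.00848 in SCR DMSO, 0.121 ± 0.0146 in SCR AAI, 0.124 ± 0.00709 in siB DMSO and 0.126 ± 0.00550 in siB AAI (SD, n = 3 each). MT-ATP8 to MT-ATP6 had group means between 0.0481 and 0.0532, and MT-ND6 to MT-ND5 between 0.167 and 0.188.

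**Figure D5:**
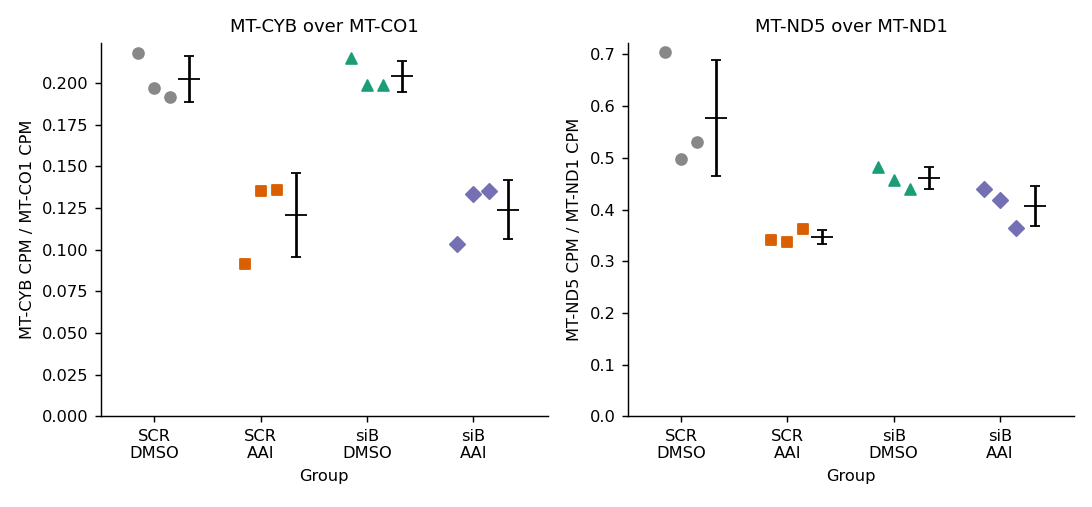
Ratio of MT-CYB to MT-CO1 CPM (left) and of MT-ND5 to MT-ND1 CPM (right) in each library, by group, with both axes from 0. Coloured points are libraries (replicates 1 to 3 from left to right), black bars the group mean ± SD (n = 3). On the left the AAI libraries, at 0.0915 to 0.136, are all below the DMSO libraries, at 0.192 to 0.218.

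The nuclear genes of the respiratory chain took nearly the same share of reads in all groups. Of 78 nuclear subunits of complexes I to V, 0 passed an adjusted p under 0.05 after AAI in SCR cells, 0 between siB AAI and SCR AAI and 0 between the DMSO groups in limma. In siB cells, 6 were higher and 6 lower with AAI, beside 30.4% higher and 21.8% lower over all genes, among them UQCRB (0.39) of complex III and NDUFB10 (-0.63) of complex I, named after their values were seen. The list's medians were -0.02, 0.07, 0.03 and 0.03 in that order of comparisons, beside 0.18, 0.00, 0.06 and 0.10 over all genes. Summed over the 78 genes, the share of reads was 0.718% ± 0.128 in SCR DMSO, 0.706% ± 0.0690 in SCR AAI, 0.723% ± 0.0446 in siB DMSO and 0.740% ± 0.0188 in siB AAI (SD, n = 3 each). The ratio of mitochondrial to nuclear chain CPM was 5.53, 3.10 and 5.65 in SCR DMSO, 3.66, 4.77 and 5.41 in SCR AAI, 4.84, 4.65 and 4.88 in siB DMSO and 5.71, 6.60 and 6.74 in siB AAI. All siB AAI libraries were above the rest, SCR DMSO replicate 3 being within 0.06 of the lowest of them.

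Factors that read and copy mitochondrial DNA are nuclear genes. Of 9 genes of mitochondrial transcription, 3 were higher and 0 lower with AAI in siB cells and 0 passed in the other comparisons of pairs. That count is near the background of siB cells (30.4% of all genes higher). TFAM, which packages mitochondrial DNA and opens its promoters, was 102, 29.6 and 75.9 CPM in SCR DMSO and 185, 113 and 141 in SCR AAI (1.21 ± 0.44, SE, adjusted p = 0.123 in limma). In siB cells TFAM was 118, 85.7 and 84.5 CPM with DMSO and 194, 151 and 157 with AAI (0.80 ± 0.16, adjusted p = 0.00217 in limma), and its groups did not overlap in either pair. POLRMT, the polymerase itself, did not pass in any comparison, with group means of 58.5 ± 29.8 CPM in SCR DMSO, 82.5 ± 18.6 in SCR AAI, 66.0 ± 8.80 in siB DMSO and 73.0 ± 2.74 in siB AAI (SD, n = 3 each). TFB2M, which melts the promoter, and TEFM, the elongation factor, also passed nowhere, with log2 differences from AAI of 0.69 ± 0.25 and 0.51 ± 0.33 in SCR cells and of 0.25 ± 0.15 and 0.12 ± 0.16 in siB cells. Of 15 genes of mitochondrial DNA replication, 8 were higher and 3 lower in siB cells (30.4% and 21.8% of all genes) and 1 was higher in SCR cells (8.98%). At 2-fold, POLG2, the accessory subunit of the DNA polymerase, was raised in siB cells (1.31 ± 0.20, adjusted p = 0.000511 in limma) and LIG3, a DNA ligase, lowered (-1.27 ± 0.14, adjusted p = 7.32e-05 in limma).

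Among 22 genes that process, tail or degrade mitochondrial RNA, 2 were higher and 1 lower with AAI in SCR cells, 7 higher and 4 lower in siB cells, and 0 higher and 1 lower between siB AAI and SCR AAI. Over all genes the shares were 8.98% and 3.36%, 30.4% and 21.8%, and 5.49% and 3.79%, so these counts were near the background. PTCD1, an RNA-binding protein of the mitochondrial matrix, was 14.6, 24.2 and 17.02 CPM in SCR DMSO and 53.6, 51.8 and 53.5 in SCR AAI (1.49 ± 0.25, adjusted p = 0.00741 in limma). In siB cells it was higher by 0.86 ± 0.13 (adjusted p = 0.000615 in limma), under 2-fold. FASTK, whose mitochondrial form is needed for the MT-ND6 messenger, was 64.4, 96.3 and 59.5 CPM in SCR DMSO and 22.03, 30.6 and 19.8 in SCR AAI (-1.56 ± 0.28, adjusted p = 0.00989 in limma). It fell in siB cells as well (-1.24 ± 0.13, adjusted p = 6.88e-05 in limma), and in both genes the groups did not overlap in SCR cells. LRPPRC, which with SLIRP keeps mitochondrial messengers stable, was 247, 57.4 and 225 CPM in SCR DMSO, where replicate 2 stood apart, and 241, 152 and 249 in SCR AAI. In siB cells LRPPRC was higher with AAI by 0.59 ± 0.18 (adjusted p = 0.0190 in limma). SLIRP did not pass, at a log2 difference of -0.07 ± 0.20 there.

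Of 8 regulators of mitochondrial biogenesis, 1 was higher and 1 lower in siB cells (30.4% and 21.8% of all genes) and 0 passed elsewhere. The lower one was PPARGC1A, a coactivator of nuclear genes for mitochondria, at 23.2, 14.2 and 13.6 CPM in siB DMSO and 4.86, 3.92 and 4.29 in siB AAI (-1.71 ± 0.22, adjusted p = 0.000183 in limma). In SCR DMSO it ran from 3.36 CPM in replicate 2 to 32.8 in replicate 1. Of 78 genes of the mitochondrial ribosome, which translates only the 13 messengers, 8 were higher and 19 lower with AAI in siB cells, 0 higher and 5 lower between siB AAI and SCR AAI, and 1 higher and 0 lower in SCR cells. Over all genes the shares were 30.4% and 21.8%, 5.49% and 3.79%, and 8.98% and 3.36%. At 2-fold, MRPL43 (-1.26 ± 0.12, adjusted p = 3.61e-05) and MRPL12 (-1.24 ± 0.18, adjusted p = 0.000398) were lowered with AAI in siB cells, and MRPS26 (-1.0002 ± 0.17, adjusted p = 0.00446) and MRPL54 (-1.11 ± 0.25, adjusted p = 0.0189) in siB AAI versus SCR AAI, all in limma. The list's medians were 0.25 in SCR cells, -0.0033 in siB cells and -0.22 between siB AAI and SCR AAI, beside 0.18, 0.10 and 0.00 over all genes.

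Nuclear copies of mitochondrial genes were looked at because reads can be shared with them. The table held 386 such rows, of which 12 had a mean CPM of at least 1. Copies of 5 members that are grouped on chromosome 1 of hg38 were 98.17% to 99.15% identical to the member over the aligned bases. MTATP6P1, at 41.0 to 72.4 CPM over the 12 libraries, stood against 1028 to 2095 CPM for MT-ATP6, and MTND1P23 reached at most 19.99 CPM. MTND1P23 was higher with AAI in siB cells (0.95 ± 0.19, adjusted p = 0.00253 in limma), whereas MTATP6P1 (0.16 ± 0.19) and MTND2P28 (0.46 ± 0.26) did not pass there. How much of either level came from the other copy was not tested.

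The row of this list with the most reads was MTRNR2L12, a copy of the 16S ribosomal RNA gene MT-RNR2, to which it was 95.08% identical over 1036 aligned bases (chr3:96617186-96618223, RefSeq on GRCh38). It was 1365, 857 and 6174 CPM in SCR DMSO, 2099, 3934 and 2305 in SCR AAI, 1247, 2285 and 2428 in siB DMSO and 3756, 5167 and 3370 in siB AAI, with SCR DMSO replicate 3 the highest of all. MT-RNR2 itself was not a row of the table, and how many of these reads came from it was not tested. In every group the library highest in MTRNR2L12 also had the largest share of AC010970.2, at 5.30%, 10.6%, 3.96% and 6.41% in that order of groups. MTRNR2L12 was raised with AAI in siB cells (1.08 ± 0.25, adjusted p = 0.00555 in limma) and did not pass in SCR cells (0.47 ± 0.67). MTRNR2L1 (0.84 ± 0.22, adjusted p = 0.0103 in limma) and MTRNR2L8 (0.87 ± 0.22, adjusted p = 0.00904 in limma) were also higher there, whereas MTRNR2L6 (0.76 ± 0.30) and MTRNR2L11 (0.66 ± 0.32) did not pass. MTND4P20 had no read in siB DMSO and 2.59, 2.17 and 1.45 CPM in siB AAI, against 0.110, 0.317 and 0.470 CPM in SCR AAI and at most 0.0735 CPM in SCR DMSO. It was the only row of this list to pass the interaction (adjusted p = 0.0185 in limma), where voom called 0.0% of all genes each way. MTND4P20 reached a CPM of 1 in siB AAI alone. It was therefore tested only through the group where it was high, and its call is no support. In all, 6 of 13 rows of the list that could be tested, MTND4P20 among them, were higher with AAI in siB cells and 0 lower (30.4% and 21.8% of all genes). In SCR cells 0 of 11 passed (8.98% and 3.36%).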

How the data were processed

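Polyadenylated RNA was captured on poly-T beads and sequenced paired-end. The authors aligned reads to hg38 with a UCSC annotation in BioJupies, and deposited log10 of CPM plus 1 per gene and library (35238 rows, 28 of them named as dates). Aligner and use of strand are not given in the sources used here. Values were turned back to CPM, and reads were recovered from the step of 1 read (at least 99.9972% of values whole within 0.05 of a read). A count of 0 allows up to 3 reads, 0.0701 to 0.189 CPM by library, a limit that covers counting error only.

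Each pair of groups was fitted alone with limma 3.58.1 (R 4.3.3, trended eBayes) on log2(CPM + 1), over genes that reached a CPM of 1 in 3 or more of the fitted libraries. Fold changes are on that scale, which understates low genes. p-values were adjusted by Benjamini-Hochberg over all genes, with a threshold of 0.05, and a change of at least 2-fold as the study's further limit. The interaction was fitted over all 4 groups. The count-based alternative was limma's voom on recovered reads, which at the 2-fold rule called 1127 genes higher and 371 lower in SCR cells with AAI, 2546 and 1107 in siB cells, 619 and 126 between the AAI groups and 0 between the DMSO groups. The steps were tested on simulated data.

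Replicate numbers in the titles were checked by the correlation of same-numbered libraries' deviations from their group means. It was 0.338 to 0.473 for SCR AAI with SCR DMSO and 0.292 to 0.614 for siB AAI with SCR AAI, which were taken as paired. It was 0.026 to 0.210 for siB AAI with siB DMSO and -0.193 to 0.726 for siB DMSO with SCR DMSO, which were not. No label states a pairing, so it was inferred from these same data.

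Distances and sequences come from hg38 (GENCODE). Other alternatives were the pseudocount, the filter, median-ratio size factors, CPM without AC010970.2 or outside MT- genes, no trend, all 4 groups in a fit and each library left out. The members, the lists of nuclear genes and the tests were chosen with earlier results of these data known. All 13 members, POLR2A, 6 regulators of mitochondrial RNA, members of other lists called at 2-fold and nuclear copies with a mean CPM of at least 5 were named by rule.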

Additional observations from a re-analysis of the deposited data

How the results depend on the processing

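In SCR cells with AAI, the count of 0 members lower at an adjusted p under 0.05 became 1 with all 4 groups in the fit (9.02% of all genes lower). It ran from 0 to 2 with a library left out, 2 without SCR DMSO replicate 2 (8.7% lower). In siB cells with AAI, the 5 higher members became 0 without a filter (23.7% of all genes higher), 2 with median-ratio size factors (26.9%) and 3 with all 4 groups in the fit (20.5%). With a library left out the count was 3 to 10. It was 10 without siB AAI replicate 1 (28.2%), and 3 without siB AAI replicate 3 (26.0%) or siB DMSO replicate 2 (24.1%). Between siB AAI and SCR AAI, the 2 higher members became 0 without a filter (3.38% of all genes higher), with median-ratio size factors (6.46%) or without AC010970.2 (5.78%). The count was 1 without the trend (6.06%) or with all 4 groups (5.11%), 6 with voom (5.17%) and 0 to 1 with a library left out (1.01% to 8.74%). CPM per mitochondrial read, an alternative added after seeing the data, called 0 members higher in either (14.4% of all genes higher in siB cells, 2.2% between the AAI groups). It called 2 lower in siB cells (38.2% lower), where MT-ND2 (-0.0064) and MT-ND5 (-0.14) turned negative, since that scale removes the members' common change. The interaction ran from 0 to 3 calls with a library left out, 3 without SCR DMSO replicate 2, where 498 of 15325 genes were higher and 512 lower. The causes of the other changes were not tested, apart from fewer libraries and, without a filter, more genes tested.

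Same-numbered libraries were taken as pairs in 2 comparisons, from correlations in these same data. There the replicate block raised the count between siB AAI and SCR AAI from 2 to 13 (15.2% of all genes higher and 13.8% lower). It left 0 between SCR AAI and SCR DMSO (14.7% and 6.4%). Elsewhere the samples share only a number, and the block gave 7 in siB cells with AAI, 0 between the DMSO groups and 0 for the interaction.

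As shares of mitochondrial reads with MT-CO1 left out of the total, 2 members were higher without overlap in SCR cells (MT-ND1 and MT-ND2). In siB cells 2 were higher (MT-CO2 and MT-ND1), and between the DMSO groups 1 (MT-ND1). MT-ATP6 then overlapped in SCR cells (6.19% to 6.57% with DMSO, 6.13% to 6.51% with AAI). MT-ND4L did so in siB cells (1.67% to 1.85% and 1.59% to 1.76%). The share over all genes was not computed on that total or with a library left out, so these counts and the next have no background. On the full total with a library left out, the counts of higher members were 1 to 2 in SCR cells, 1 to 2 in siB cells and 0 to 1 between the DMSO groups. Those of lower members were 7 to 8, 5 to 7 and 3 to 4. Between the AAI groups 0 to 1 were higher and 0 to 2 lower. Spearman's correlation of change and distance ran from -0.944 to -0.867 in SCR cells, -0.853 to -0.594 in siB cells, 0.182 to 0.713 between the AAI groups and -0.671 to -0.364 between the DMSO groups with a library left out, and was -0.905 in SCR cells without overlapping genes. With gene length in place of distance it was 0.196, 0.294, 0.301 and 0.028. Median-ratio scaling moved the median of all genes by -0.18 in SCR cells and -0.11 in siB cells, and the split of calls over all genes in SCR cells from 1277 higher and 478 lower to 1088 and 801. For the interaction over all genes, voom called 0 where limma called 223 higher and 24 lower. Of 1170 values of single members over all comparisons and alternatives, 46 had another sign with no call on either side, 23 of them per mitochondrial read. Leaving out a library moved the share of reads in siB AAI minus siB DMSO between 1.085 and 1.531 points, and in siB AAI minus SCR AAI between 1.304 and 1.774, whereas SCR AAI minus SCR DMSO ran from -0.398 to 0.186 and siB DMSO minus SCR DMSO from -0.155 to 0.430, with both signs.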
